A study of Mus musculus with 48 samples.

Results

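The 10 genes described here encode proteins with which the mammary epithelium carries antibody into milk and defends its surface against microbes: Pigr, Ltf, Lcn2, Trf, S100a8, S100a9, Saa1, Saa2, Saa3 and Cxcl15. They were taken by symbol from a table of 55487 genes, each had 1 row there, and all 10 passed the filter on low values that left 20209 genes for testing. The study sequenced total RNA from thoracic mammary glands of aging transgenic mice, in 48 libraries, and asked how the gland responds to transgene induction and to age. Every mouse carried MMTV-rtTA, a doxycycline-controlled activator driven by a viral promoter that is active mainly in mammary epithelium, joined either to tet-op-Esr1 (estrogen receptor alpha, the Esr1 model) or to tet-op-CYP19A1 (aromatase, the enzyme that makes estrogen, the CYP19A1 model). Each model gave 8 groups of 3 libraries: uninduced at 12, 18 and 24 months, induced for 1 week at 12 and 18 months, induced for 6 or 12 months and examined at 24 months, and induced for 18 months and examined at 30 months. All groups shared the activator transgene, so neither a transgene-free group nor an inducer-only group was compared, and the 30-month glands had no uninduced counterpart of that age. The libraries are numbered as biological replicates; nothing says further whether each came from a separate mouse, so a p-value here weighs a difference only against the variation among libraries.

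As background, the polymeric immunoglobulin receptor made from Pigr binds IgA that plasma cells secrete beside the epithelium, carries it across the cell and releases it into milk with part of the receptor attached. Lactoferrin (Ltf) and transferrin (Trf) bind iron, lipocalin 2 (Lcn2) binds the siderophores with which bacteria collect iron, and the S100a8 and S100a9 proteins form calprotectin, which withholds metal ions and is abundant in neutrophils. Serum amyloid A proteins (Saa1, Saa2, Saa3) are acute phase proteins that epithelium and macrophages also make, and Cxcl15 is a chemokine for neutrophils first known from mouse lung.

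In these glands Pigr was the only member past the threshold, in 1 comparison: it was higher in uninduced Esr1 than in uninduced CYP19A1 glands. Ltf lay lower in the Esr1 model in that comparison, without passing the threshold. Trf, Lcn2, Pigr and the Saa1 and Saa2 pair varied together from library to library and with the milk protein genes, Ltf followed them less closely, and S100a8, S100a9 and Cxcl15 kept other company. Saa3 went with S100a8 in both models. It went most closely with Saa1 and Saa2 in the Esr1 libraries and with S100a9 in the CYP19A1 libraries. This difference was not tested. No member passed the threshold after induction of either transgene or with age. Of the 180 pairs of member and comparison, 16 had an unadjusted limma p under 0.05 and 1 had an adjusted p under 0.05.

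The values are TPM, transcript levels scaled for length and then to the same total in every library, so levels can be compared between genes within the limits of that scale. They keep no record of depth, which is therefore unknown for each value. The glands carried the marks of their label: Epcam lay between 10.6 and 161 TPM and Krt8 between 15.96 and 164 TPM, beside the fat gene Adipoq (184 to 985 TPM) and the muscle gene Acta1 (48.6 to 8710.5 TPM), which shows that fat and muscle were sampled too. Of 9 salivary gland genes Bpifa2 did not exceed 0.14 TPM, Amy1 lay at 22.8 to 96.1 TPM in all libraries, and Klk1, with a median of 0.125 TPM, reached 122 TPM in replicate 3 of the 18-month and 25.2 TPM in replicate 1 of the 12-month Esr1 group induced for 1 week. The mean log2 level of these 9 genes was 1.81 and 1.59 in these libraries and at most 1.04 in the others. Protein-coding genes held 15.9% to 38.8% of the TPM of a library, and 9 libraries gave over 10% of their TPM to 3 genes that collect ribosomal RNA reads. That share had a median of 0.0752% over the 48 libraries and a highest value of 67.2%. Of these 9 libraries 7 belong to the CYP19A1 model, including all 3 of its 12-month 1-week group. Esr1 itself, which cannot separate transgene from resident transcript, lay at 6.39 to 25.9 TPM in the 15 induced Esr1 libraries and at 8.88 to 16.3 TPM in the 9 uninduced ones, and these ranges overlapped. Mouse Cyp19a1 did not exceed 0.29 TPM, and since its model carries the human gene this checks no label. Because whole glands were measured, fewer cells of a type and less RNA per cell cannot be told apart in any value below.

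The promoters of 9 members were found in RefSeq tables on GRCm38.p6, the same assembly as the mm10 build of the files. Those of 5 members are shown. Saa1 and Saa2 moved as a pair, Saa3 followed them less closely over all libraries, and Lcn2 and Ltf varied with them. All 5 windows shown hold the C/EBP core marked below, and that of Pigr, not shown, held no match to any motif searched. Within groups Pigr correlated at 0.74 with Lcn2 and 0.67 with Saa1. S100a9, not shown, held the core and correlated at 0.17 and 0.14 with the same genes. Any link between the motif and the shared variation was not tested. Each is the 250 bases before the RefSeq start site, 5′ to 3′ on the strand of the gene: Saa1 at chr7:46742981-46743230 (minus strand), Saa2 at chr7:46751583-46751832 (plus strand), Saa3 at chr7:46715677-46715926 (minus strand), Lcn2 at chr2:32387740-32387989 (minus strand) and Ltf at chr9:111019042-111019291 (plus strand). Capitals mark matches to TTGCNNAA, the core of sites for C/EBP factors, on either strand.
Saa1: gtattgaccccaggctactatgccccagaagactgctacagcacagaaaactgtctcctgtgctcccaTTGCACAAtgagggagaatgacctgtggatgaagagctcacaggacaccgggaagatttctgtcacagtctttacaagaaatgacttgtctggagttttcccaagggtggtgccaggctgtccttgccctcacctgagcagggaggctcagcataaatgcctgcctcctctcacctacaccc
Saa2: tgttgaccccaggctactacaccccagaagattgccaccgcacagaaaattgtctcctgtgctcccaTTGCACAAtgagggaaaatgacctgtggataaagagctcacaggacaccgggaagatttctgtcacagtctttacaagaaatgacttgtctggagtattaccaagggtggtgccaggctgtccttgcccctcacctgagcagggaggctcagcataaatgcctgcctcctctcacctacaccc
Saa3: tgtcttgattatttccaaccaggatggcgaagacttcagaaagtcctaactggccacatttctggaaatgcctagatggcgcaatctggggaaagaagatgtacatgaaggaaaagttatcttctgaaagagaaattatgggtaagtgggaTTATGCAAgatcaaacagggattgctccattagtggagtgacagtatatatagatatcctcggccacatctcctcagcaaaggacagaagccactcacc
Lcn2: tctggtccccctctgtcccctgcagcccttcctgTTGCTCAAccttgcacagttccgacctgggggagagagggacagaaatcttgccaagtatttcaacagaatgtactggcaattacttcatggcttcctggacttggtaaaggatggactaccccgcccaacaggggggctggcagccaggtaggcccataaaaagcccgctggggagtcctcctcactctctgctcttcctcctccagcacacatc
Ltf: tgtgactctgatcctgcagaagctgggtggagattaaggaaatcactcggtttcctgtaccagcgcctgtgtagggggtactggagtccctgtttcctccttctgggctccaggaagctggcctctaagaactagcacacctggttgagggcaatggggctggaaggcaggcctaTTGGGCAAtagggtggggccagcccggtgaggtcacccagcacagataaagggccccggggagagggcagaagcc
Saa1 and Saa2, which lie on opposite strands of chromosome 7, had 238 identical bases over the 250 (95.2%), whereas Saa3 shared 55.6% with Saa1 and 54% with Saa2, within the 48% to 58% seen among the other pairs of member promoters. The same 8 letters, TTGCACAA, stood at -182 to -175 in Saa1 and at -183 to -176 in Saa2, counted back from the start site. Saa3 held its match at -99 to -92 and Ltf at -75 to -68, both on the opposite strand, Lcn2 at -216 to -209 and S100a9 at -236 to -229. Thus 6 of the 9 windows held the motif, against 9.56% of all 32851 windows of this length. Among these 6, the windows of Saa1 and Saa2 are 95.2% identical and do not count as separate observations. TATAAA, searched on the strand of the gene and the opposite one, was found in S100a8 at -30 to -25 and in Cxcl15 at -27 to -22, and in 12.4% of all windows. TTCNNNGAA, the STAT core, and the NF-kB consensus were in none of the 9 and in 7.02% and 7.25% of all windows. A match is a description of letters and not a binding site.

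Pigr (chr1:130826684-130852249, plus strand) ranged from 0.13 to 86.8 TPM. In uninduced Esr1 glands its 3 libraries read 13.02, 18.6 and 32.7 TPM at 12 months, 43.2, 86.8 and 7.11 TPM at 18 months, and 0.35, 0.59 and 54.8 TPM at 24 months. In uninduced CYP19A1 glands they read 0.13, 7.98 and 7.77 TPM at 12 months, 1.19, 3 and 2.47 TPM at 18 months, and 1.05, 1.07 and 1.16 TPM at 24 months. The models therefore did not overlap at 12 or at 18 months, and they overlapped at 24 months, where 2 of the 3 Esr1 libraries lay below every CYP19A1 library. Here and below, the share of all genes that separate the models at a single age or length of induction was not computed. Such separations therefore stand without a baseline. Within a model the share reached 21.6%, for genes lower in 30-month than in 12-month-induced CYP19A1 glands. Averaged over the ages, Pigr was higher in the Esr1 model by 2.27 on the log2(TPM + 1) scale (SE 0.63, 95% interval 0.99 to 3.55), with means of 28.6 and 2.87 TPM. For this limma gave an adjusted p of 0.0365 (Benjamini-Hochberg over all genes). It was the only 1 of the 10 members past the threshold in that comparison, against 2.95% of all genes tested. Of the 10 members 8 lay higher in the Esr1 model, with a median of 0.72 beside 0.10 for all genes. With the luminal epithelium score described below as a covariate, 7 of 10 lay higher with a median of 0.35.

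This call was near its limit. It was lost with a pseudocount of 0.1 (adjusted p = 0.0648), without the filter on low values (0.0786), with only the compared groups fitted (0.128) and without the libraries over 10% ribosomal RNA (0.141). Leaving out single libraries lost it in 10 of 18 cases, all limma adjusted p-values lying between 0.0596 and 0.133. Those libraries were replicates 2 and 3 of the Esr1 12-month group, replicates 1 and 2 of its 18-month group, replicate 3 of its 24-month group, replicate 1 of the CYP19A1 12-month and of the CYP19A1 18-month group, and each of the 3 CYP19A1 24-month libraries. The difference kept its sign in every one of these fits and was smallest, 1.69, without replicate 3 of the Esr1 24-month group. With a luminal epithelium score as a covariate, an alternative chosen after seeing the data, it was 1.51 (adjusted p = 0.0510). The libraries over 10% ribosomal RNA were unevenly spread in this comparison. In the CYP19A1 model they were replicates 1 (67.2%) and 3 (22.2%) at 12 months and replicate 1 at 18 months (40.3%). Replicate 3 at 24 months (15.6%) was another, and no uninduced Esr1 library exceeded 3.42%.

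**Figure D1:**
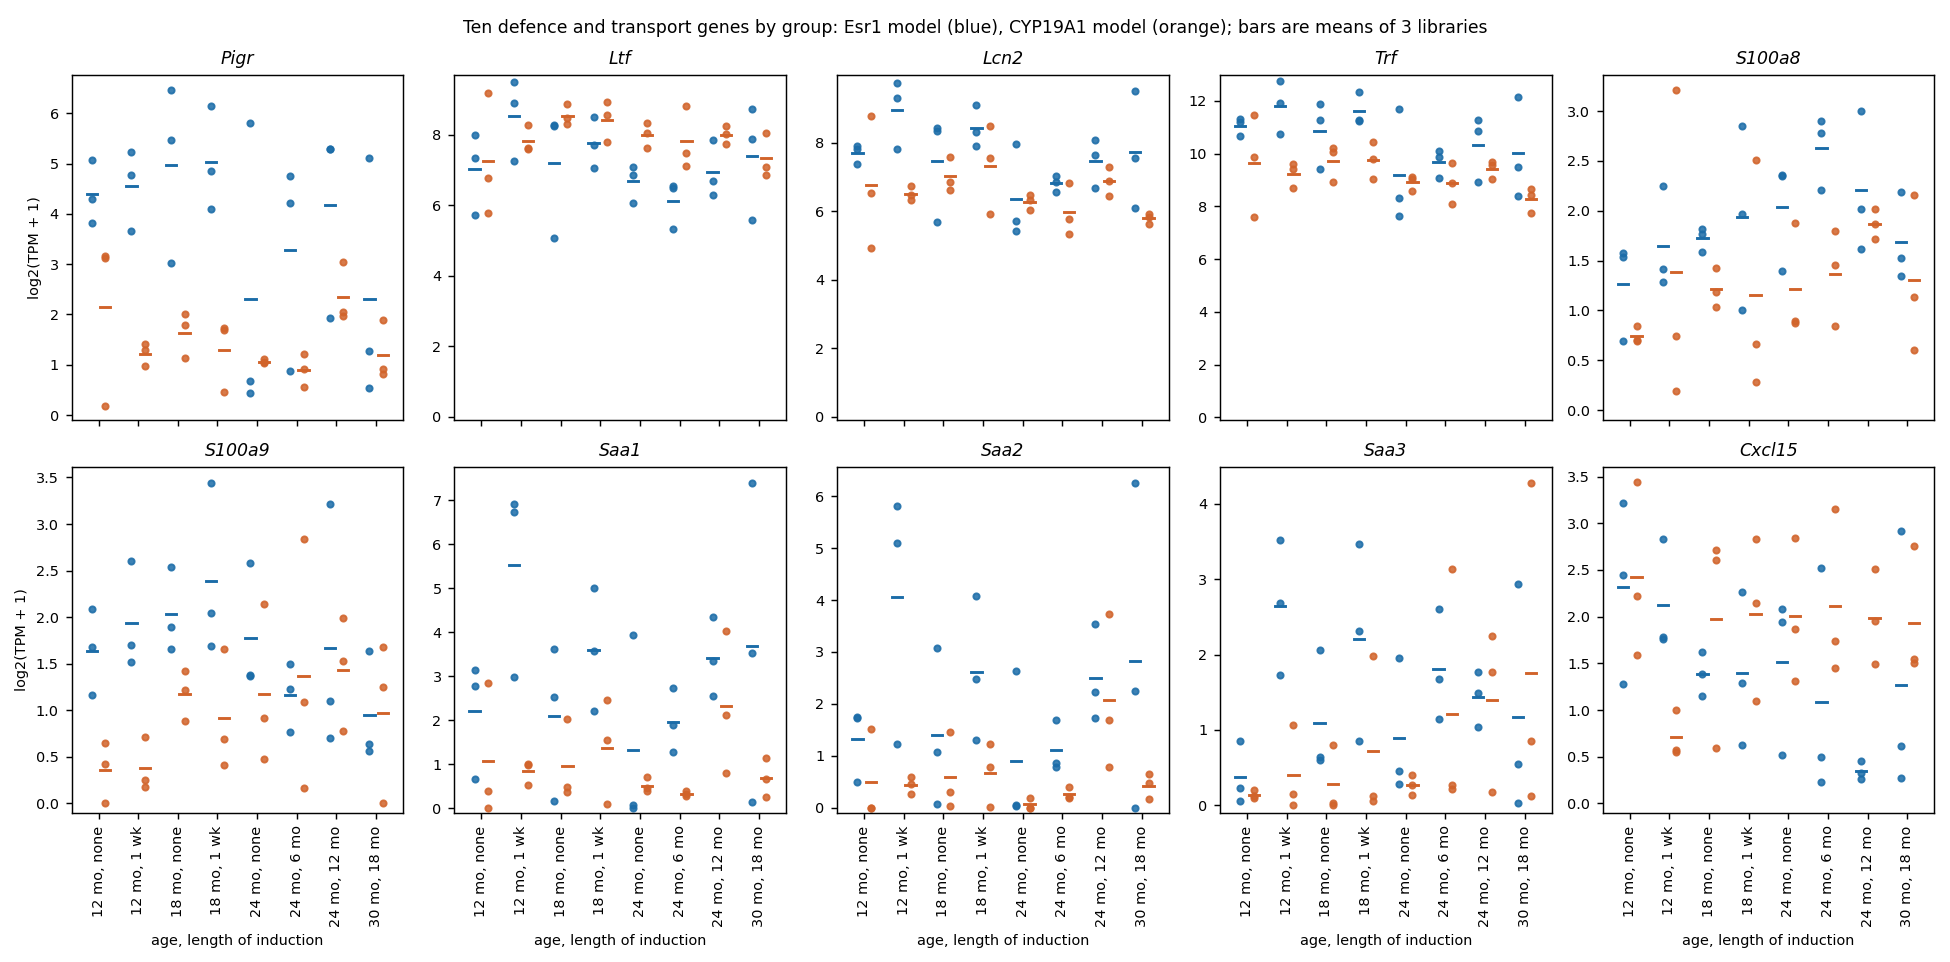
Level of each member as log2(TPM + 1) in every library, by age and length of induction; points are libraries, bars the means of 3 libraries, blue the Esr1 and orange the CYP19A1 model, and each panel has its own vertical scale. The Esr1 points of Pigr lie above the CYP19A1 points in the 12-month and 18-month groups and spread over the whole range at 24 months, where they run from 0.35 to 54.8 TPM.

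In the induced groups most Esr1 libraries again lay above the CYP19A1 libraries for Pigr. After 1 week of induction Esr1 glands gave 26.4, 36.7 and 11.7 TPM at 12 months and 16.1, 28 and 69.7 TPM at 18 months. The CYP19A1 glands gave 1.66, 1.44 and 0.96 TPM and 2.23, 0.37 and 2.31 TPM at the same ages. No library of one model reached the range of the other in these 1-week groups. After 6 months the Esr1 glands read 0.83, 25.8 and 17.5 TPM and the CYP19A1 glands 0.48, 1.31 and 0.9 TPM. After 12 months the values were 2.8, 38.2 and 38.1 TPM against 3.13, 7.19 and 2.92 TPM. At 30 months, after 18 months of induction, they were 33.4, 0.45 and 1.43 TPM against 0.75, 0.88 and 2.7 TPM. Thus in each of the 3 long groups 1 or 2 Esr1 libraries stood far above the CYP19A1 range while the remainder lay within or just beside it. Over the long groups the difference was 1.77 (SE 0.63, 95% interval 0.49 to 3.05, limma adjusted p = 0.109). It passed the threshold when replicate 1 of the Esr1 6-month group (2.17, adjusted p = 0.0330) or replicate 1 of the Esr1 group induced for 12 months (2.14, adjusted p = 0.0425) was left out. Over all ages and inductions 17 of 24 Esr1 libraries exceeded the highest CYP19A1 library (7.98 TPM).

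The ligand that this receptor carries had, by median transcript level, the same order of the models as Pigr only after 1 week. The order was reversed in the uninduced and the long groups. Igha, the heavy chain of IgA, had medians of 86.9 TPM in uninduced Esr1 and 172 TPM in uninduced CYP19A1 glands, of 331 and 85.7 TPM after 1 week, and of 25.7 and 65.1 TPM over the long groups. In Esr1 glands of 12 months it read 183, 86.9 and 149 TPM uninduced and 257, 404 and 600 TPM after 1 week, and at 18 months 72.4, 142 and 29.3 TPM and then 466, 219.7 and 227 TPM. The 1-week libraries thus lay above the uninduced ones without overlap at both ages, and neither difference passed the limma threshold. At 12 months 10.1% of all genes tested were likewise higher without overlap, and the share at 18 months was not computed. The model difference of Igha was -1.19 uninduced (SE 0.53, limma adjusted p = 0.227) and -1.41 over the long groups (SE 0.53, adjusted p = 0.131), and the 1-week responses differed by 2.12 (SE 0.91, adjusted p = 0.548). Jchain, which links IgA into the dimers that the receptor binds, had medians of 39.4 TPM over the 24 Esr1 and 42.2 TPM over the 24 CYP19A1 libraries. Igha exceeded Pigr in 22 of 24 Esr1 and in 24 of 24 CYP19A1 libraries. Of 8 partners of antibody transport and of the plasma cell niche, 7 were tested. In the uninduced comparison 1 was higher in the Esr1 model, Tnfsf13 (APRIL, a survival factor of plasma cells), by 1.22 (SE 0.34, limma adjusted p = 0.0348; means 12.5 and 4.38 TPM). This call was lost when any of the same 10 single libraries as for Pigr was left out (highest adjusted p = 0.125). Over the long groups 1 was lower, Ccr10 (the homing receptor of IgA plasma cells), by -0.36 (SE 0.10, limma adjusted p = 0.0316; means 0.594 and 1.06 TPM), a call lost in 9 of 18 fits without 1 library (highest adjusted p = 0.102). The median of the 7 was -0.02 uninduced and -0.31 over the long groups, beside 0.10 and -0.12 for all genes.

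Among the iron binding members Trf (chr9:103204001-103230444, minus strand) was the most abundant transcript of the 10 in 47 of 48 libraries, with a median of 812 TPM (192 to 6845). The exception was replicate 2 of the CYP19A1 30-month group, where Ltf was higher (264 TPM against 213 TPM of Trf). Of the 75-base windows of its transcripts 55.8% are shared with the gene model Gm20425, whose own level was 1 to 9.41 TPM, which is small beside Trf. In uninduced Esr1 glands Trf read 2329, 1644 and 2512 TPM at 12 months, 2504, 3774 and 686 TPM at 18 months, and 196, 315 and 3279 TPM at 24 months. In uninduced CYP19A1 glands it read 192, 2852 and 938 TPM, 490, 1068 and 1172 TPM, and 384, 551 and 528 TPM at these ages. The models overlapped at every age. The order of the libraries was that of Pigr in 3 of these 6 groups, the Esr1 groups of 18 and 24 months and the CYP19A1 group of 12 months, and differed in the other 3. Replicate 3 of the Esr1 24-month group was high, and replicate 3 of its 18-month group low, for both genes. The comparison of models gave 0.94 uninduced (SE 0.49, limma adjusted p = 0.307) and 1.15 over the long groups (SE 0.49, adjusted p = 0.195; means 1435 and 513 TPM).

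Lcn2 (chr2:32384633-32388252, minus strand) and Ltf (chr9:111019271-111042767, plus strand) were both expressed in all 48 libraries, at medians of 114.5 and 208 TPM. In uninduced Esr1 glands Lcn2 read 236, 167 and 222 TPM at 12 months, 322, 340 and 50.1 TPM at 18 months, and 42.1, 51.8 and 248 TPM at 24 months. Ltf in the same libraries read 251, 51.7 and 160 TPM, 307, 304 and 32.3 TPM, and 115, 65.4 and 135 TPM. In uninduced CYP19A1 glands Lcn2 read 29.5, 442 and 92.1 TPM, 96.3, 115 and 192 TPM, and 63.9, 78.9 and 88.1 TPM at these ages, and Ltf read 108, 577 and 53.6 TPM, 315, 351 and 461 TPM, and 196, 321 and 263 TPM. At 18 and at 24 months all 3 CYP19A1 libraries held more Ltf than any Esr1 library, and at 12 months the models overlapped. For Lcn2 they overlapped at all 3 ages. The uninduced model difference of Ltf was -0.97 (SE 0.44, 95% interval -1.86 to -0.08, limma adjusted p = 0.238; means 158 and 294 TPM). It passed the threshold without the libraries over 10% ribosomal RNA (-1.65, adjusted p = 0.0435) and with protein-coding genes rescaled to a common total (-1.32, adjusted p = 0.0309).

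In the long groups Lcn2 and Ltf again lay in opposite directions between the models. In Esr1 glands Lcn2 read 114, 129 and 94.01 TPM after 6 months, 100.5, 269 and 197 TPM after 12 months and 731, 67.9 and 185 TPM after 18 months. In CYP19A1 glands it read 39.6, 111 and 53.2 TPM, 85.8, 155 and 117 TPM and 55.8, 48.5 and 58.9 TPM. For Lcn2 every Esr1 library lay above every CYP19A1 library at 30 months, and the models overlapped after 6 and 12 months. Ltf read 92.4, 88.95 and 38.99 TPM, 76.4, 231 and 101 TPM and 421, 47.1 and 232 TPM in Esr1 glands, in the same order. In CYP19A1 glands it read 138, 447 and 178 TPM, 209.9, 303 and 257 TPM and 134, 264 and 115 TPM. Ltf was lower in every Esr1 than in every CYP19A1 library after 6 months, and the models overlapped after 12 and 18 months. The model differences over the long groups were 1.12 for Lcn2 (SE 0.44, limma adjusted p = 0.156; means 210 and 80.5 TPM) and -0.89 for Ltf (SE 0.44, adjusted p = 0.283; means 148 and 227 TPM). Lcn2 passed the threshold under 2 other scalings, by the median of ratios (1.28, adjusted p = 0.0326) and of protein-coding genes to a common total (1.25, adjusted p = 0.0443).

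The contrast was clearest inside single libraries, where no scaling between libraries enters. Ltf exceeded Lcn2 in 4 of 24 Esr1 libraries and in 23 of 24 CYP19A1 libraries. The ratio of Ltf to Lcn2 had a median of 0.706 (0.31 to 2.73) in the Esr1 and of 2.78 (0.582 to 5.46) in the CYP19A1 model. This ratio was chosen after its values were seen and is given with no test. Per Epcam, a marker of epithelial cells, Ltf had medians of 2.01 and 7.32 and Lcn2 of 2.51 and 2.68 in the Esr1 and CYP19A1 models. Trf had medians of 25.6 and 17.8 per Epcam and Pigr of 0.256 and 0.0452. The Lcn2 medians thus came close together, and those of Ltf and Pigr lay apart in opposite directions. The ranges of all 4 ratios overlapped between the models. Of 18 luminal epithelium genes 0 passed the limma threshold in either comparison, with medians of 0.60 uninduced and 0.46 over the long groups. Their summed level ranged over 230 to 1247 TPM (median 708) in the uninduced Esr1 and over 115 to 903 TPM (median 372) in the uninduced CYP19A1 libraries. Their part in the differences was tested only through the covariate fit, in which Ltf passed the threshold over the long groups (-1.19, adjusted p = 0.0401).

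**Figure D2:**
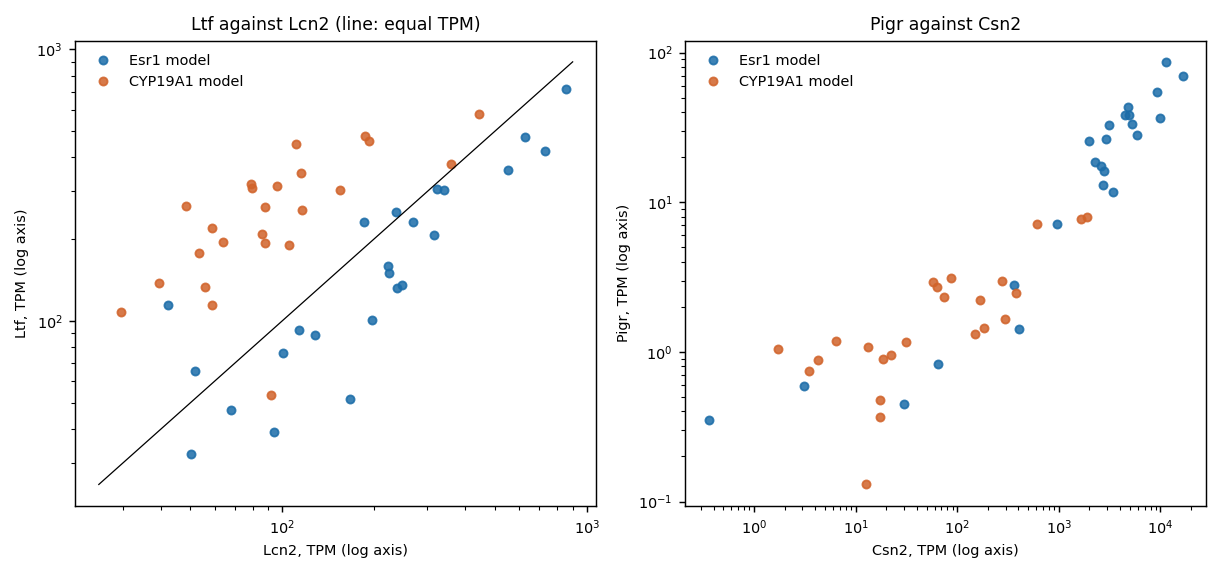
Left, Ltf against Lcn2 in TPM in the 48 libraries, with a line of equal TPM; right, Pigr against the casein gene Csn2; all axes are logarithmic, blue points are Esr1 and orange points CYP19A1 libraries. On the left 23 of 24 CYP19A1 points lie above the line and 20 of 24 Esr1 points on the other side of it; on the right Pigr rises with Csn2 along 1 band in both models (r = 0.88 within groups).

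The spread of Trf, Lcn2 and Ltf among induced libraries differed from group to group. After 1 week in Esr1 glands of 12 months Trf read 1735, 6845 and 3836 TPM, Lcn2 224, 859 and 629 TPM and Ltf 149.8, 713 and 475 TPM. Replicates 2 and 3 were high for all 3 genes and replicate 1 lay within the uninduced range for each. The differences from the uninduced glands were 0.75 for Trf (SE 0.85, limma adjusted p = 0.762), 1.26 for Lcn2 (SE 0.77, adjusted p = 0.754) and 1.53 for Ltf (SE 0.76, adjusted p = 0.754), while that of Pigr was 0.17 (SE 1.09, adjusted p = 0.961). In CYP19A1 glands of 12 months Trf read 779, 676 and 413 TPM after 1 week, Lcn2 106, 87.8 and 79.4 TPM and Ltf 191, 194 and 309.7 TPM, all within the ranges of the uninduced group. At 18 months the 1-week libraries read 2474, 2417 and 5149 TPM of Trf in Esr1 and 1384, 522 and 879.98 TPM in CYP19A1 glands, and both groups overlapped their uninduced libraries. With long induction Trf read 541, 1092 and 948.5 TPM after 6 months, 480.5, 2478 and 1842 TPM after 12 months and 4475, 334 and 724 TPM after 18 months in Esr1 glands. In CYP19A1 glands it read 272, 809 and 472 TPM, 531, 764 and 816 TPM and 342, 213 and 399 TPM. The highest and the lowest Esr1 value of these 9 libraries thus stood in the same group, at 30 months, and that group overlapped the CYP19A1 glands through 1 library.

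Of 13 genes that handle iron, 11 were tested, and Cybrd1, a ferric reductase, was the only one past the threshold in any comparison. It was higher after 1 week of Esr1 induction at 12 months by 1.37 (SE 0.25, limma adjusted p = 0.0216; means 2.85 and 0.453 TPM). The call was lost in 5 of 6 fits without 1 library, all but that without replicate 1 of the induced group (adjusted p from 0.0103 to 0.198), after scaling by the median of ratios (0.1045) and in the other scaling (0.196). Of 14 other secreted defence proteins of epithelium, all 14 were tested. Defb1, an epithelial defensin, was higher in uninduced Esr1 than CYP19A1 glands by 1.46 (SE 0.40, adjusted p = 0.0332; means 4.57 and 1.4 TPM). Over the long groups Wfdc18, a protein of the whey acidic protein family, was higher by 2.43 (SE 0.70, adjusted p = 0.0373; means 688 and 83.7 TPM). Chil1, a chitinase-like protein of secretory epithelium, was higher by 1.88 (SE 0.48, adjusted p = 0.0144; means 32.3 and 7.83 TPM) and Wfdc2, a secreted protein with whey acidic protein domains, was lower by -1.41 (SE 0.36, adjusted p = 0.0148; means 13.6 and 29.8 TPM). This list therefore had 1 member higher of 14 uninduced and 2 higher and 1 lower of 14 over the long groups, with medians of 0.40 and 0.57 beside 0.10 and -0.12 for all genes. Chil1 passed in all 18 fits without 1 library, Wfdc2 in all but that without replicate 3 of the Esr1 30-month group (adjusted p = 0.0612), while Wfdc18 was lost in 13 of 18 and Defb1 in 12 of 18.

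Saa1 (chr7:46740497-46742980, minus strand), Saa2 (chr7:46751790-46754313, plus strand) and Saa3 (chr7:46711998-46715700, minus strand) were low in most libraries and high in a few. Saa1 was at 10 TPM or more in 9 of 24 Esr1 and 1 of 24 CYP19A1 libraries, with medians of 6.39 and 0.515 TPM. Saa1 and Saa2 share 18.5% and 17.8% of their 75-base transcript windows with each other, so the split of reads between them is uncertain, and their sum is the safer value. The windows were pooled over all annotated transcripts, 2 for Saa1 and 4 for Saa2, so the share in a single transcript may be larger. In 12-month Esr1 glands the sum read 10.1, 1.01 and 8.27 TPM uninduced and 8.22, 175 and 139 TPM after 1 week: 2 of the 3 induced libraries stood above all uninduced ones and the third lay among them. Saa1 alone read 7.84, 0.6 and 5.91 TPM and then 6.87, 120 and 106 TPM, and Saa2 alone 2.3, 0.41 and 2.36 TPM and then 1.35, 55.6 and 33.4 TPM. Saa3, whose windows are 0.922% shared, read 0.04, 0.17 and 0.81 TPM uninduced and 2.32, 10.5 and 5.45 TPM after 1 week, without overlap.

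These were the largest log2 differences of the 10 genes after 1 week of Esr1 induction at 12 months, and none passed the threshold. They were 3.34 for Saa1 (SE 1.18, 95% interval 0.94 to 5.74), 2.73 for Saa2 (SE 1.01, interval 0.68 to 4.78) and 2.27 for Saa3 (SE 0.81, interval 0.64 to 3.90), each with a limma adjusted p of 0.754. At an unadjusted p under 0.05 these 3 of the 10 members remained, against 5.51% of all genes. By the adjusted p 0 of 10 were called, against 0.0099% of all genes. Saa3 alone was higher without overlap, 1 of 10 against 10.1% of all genes. Over the 10 members the median was 1.00 beside 0.22 for all genes, and 9 lay higher (8 after scaling by the median of ratios). With the luminal score as covariate the median was 0.41 and 7 lay higher. Without replicate 1 of the induced group, which held the salivary gene transcripts named above, the differences of Saa1, Saa2 and Saa3 were 4.62, 4.14 and 2.73, and none passed the threshold. The summed levels of other gene lists differed between the same libraries. Luminal epithelium genes summed to 432, 708 and 1060 TPM uninduced and to 989.7, 1004 and 1351 TPM induced, from lowest to highest. Macrophage genes summed to between 239 and 650 TPM and between 693 and 880 TPM, and muscle genes to between 1811 and 14205 TPM and between 331 and 5504 TPM. Plasma cell genes summed to between 355 and 389 TPM and between 622 and 988 TPM, without overlap. The neutrophil list summed to between 4.01 and 13.1 TPM and between 8.52 and 10.3 TPM. Only the luminal genes entered a fit, the covariate fit above, and the part of the others in the result was not tested. At 18 months the same 1 week gave Saa1 values of 11.01, 3.67 and 31.2 TPM against 4.8, 11.4 and 0.12 TPM uninduced, which overlapped.

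In CYP19A1 glands 1 week left Saa1 at 0.97, 1.01 and 0.45 TPM at 12 months (uninduced 0, 6.19 and 0.31 TPM) and at 1.93, 0.07 and 4.49 TPM at 18 months (uninduced 0.3, 0.4 and 3.11 TPM). The 1-week responses of the models differed for Saa1 by 2.34 (SE 1.18, 95% interval -0.06 to 4.73, limma adjusted p = 0.548). For that difference of responses 0 of 10 members passed the threshold, against 0% of all genes, with 0 of 10 and 6.42% at an unadjusted p under 0.05. All 10 responses were larger in the Esr1 model on the deposited scale (median 0.88 beside 0.30 for all genes), 9 of 10 after scaling by the median of ratios (median 0.54) and 6 of 10 with the luminal score as covariate (median 0.28). In this contrast the 12-month 1-week CYP19A1 libraries held 36.7% to 49.8% ribosomal RNA. Uninduced CYP19A1 replicates 1 and 3 of 12 months held 67.2% and 22.2%, and replicate 1 of 18 months held 40.3%. No Esr1 library in the contrast exceeded 3.42%, and the part of that share in the difference was not tested.

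Long induction left the Saa genes uneven. In 24-month Esr1 glands Saa1 read 0.05, 0 and 14.3 TPM uninduced, 2.7, 1.44 and 5.68 TPM after 6 months and 4.86, 19.5 and 9.13 TPM after 12 months, while the 30-month glands read 166, 0.1 and 10.6 TPM. The 30-month group thus held the highest Saa1 value of all 48 libraries beside a library at 0.1 TPM. In CYP19A1 glands Saa1 read 0.37, 0.31 and 0.64 TPM uninduced at 24 months, 0.21, 0.31 and 0.26 TPM after 6 months, 3.37, 15.3 and 0.75 TPM after 12 months and 0.58, 0.2 and 1.22 TPM at 30 months. The 12-month values lay above the uninduced ones without overlap, as did those of Saa2 (2.24, 12.3 and 0.71 TPM against 0.14, 0 and 0 TPM) and of Pigr. There 3 of 10 members were higher without overlap, against 6.78% of all genes, and 0 of 10 were called, against 0.0198% (with an unadjusted p under 0.05, 0 of 10 and 1.13%). Genes of skin keratinocytes were higher in the same group, 3 of 7 tested past the limma threshold, among them Krt6a (1.73, SE 0.28, adjusted p = 0.00695; means 3.55 and 0.347 TPM), and their part in the result was not tested. All 3 calls were lost without replicate 1 of the induced group and without uninduced replicate 1 or 2, and that of Asprv1, a skin protease, also without uninduced replicate 3 (for Krt6a the highest adjusted p was 0.109). Over the long groups the model difference of Saa1 was 1.91 (SE 0.68, 95% interval 0.53 to 3.29, limma adjusted p = 0.1101) and that of Saa2 1.23 (SE 0.58, adjusted p = 0.262). Saa1 passed the threshold when replicate 2 of the Esr1 30-month group was left out (2.50, adjusted p = 0.0129). Saa3 had its 2 highest CYP19A1 values in replicate 2 of the 30-month group (18.4 TPM, beside 0.09 and 0.81 TPM) and replicate 2 of the 6-month group (7.81 TPM, beside 0.21 and 0.16 TPM), libraries in which Saa1 stood at 0.2 and 0.31 TPM.

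**Figure D3:**
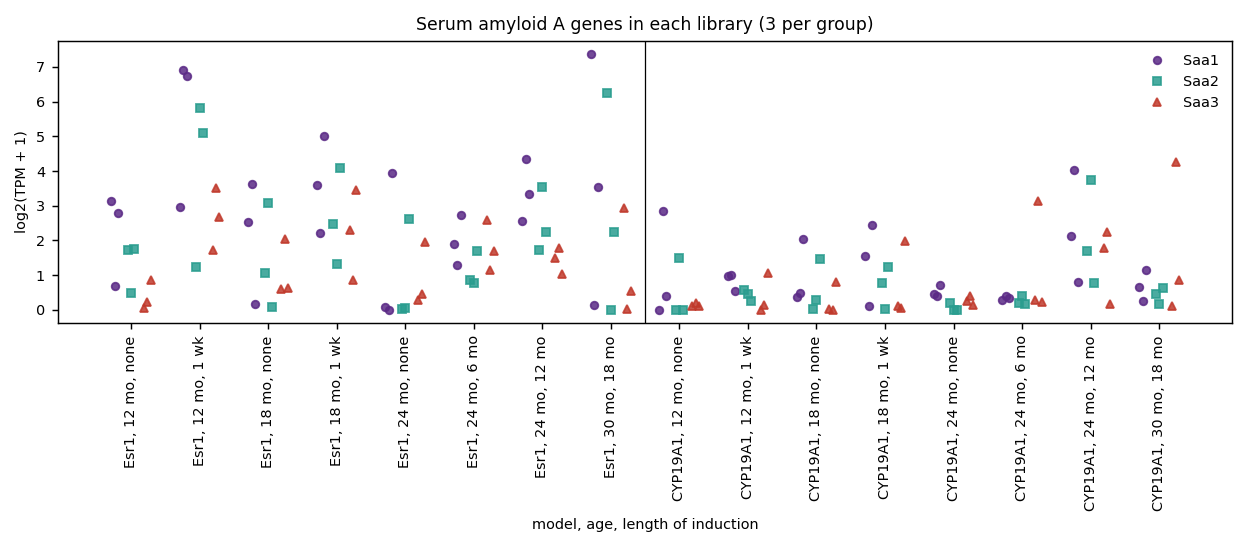
Saa1 (circles), Saa2 (squares) and Saa3 (triangles) as log2(TPM + 1) in each of the 48 libraries, with Esr1 groups left and CYP19A1 groups right of the line and 3 libraries to a group. Saa1 and Saa2 move as a pair and reach 166 and 75.1 TPM in the same 30-month Esr1 library, while Saa3 peaks elsewhere, at 18.4 TPM in a 30-month CYP19A1 library.

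Other genes of the acute phase response did not pass the threshold. Of 15 regulators 12 were tested and of 12 receptors 10, and 0 of either list passed the threshold in the 1-week Esr1 comparison at 12 months (medians 0.52 and 0.38 beside 0.22 for all genes) or in the comparisons of the models. The most abundant of these were the transcription factor Stat3 (median 53.7 TPM over the 48 libraries), the NF-kB inhibitor Nfkbia (30.6 TPM), and the cytokine receptor chains Il6st (60.3 TPM) and Lifr (28.8 TPM). The cytokines Il6 and Il17a had medians of 0.08 and 0 TPM. Of 9 other acute phase proteins 7 were tested and 0 passed in those comparisons; the most abundant were Hp (haptoglobin, 156 TPM) and C3 (complement, 133 TPM). Their summed level ranged over 485 to 597 TPM in uninduced and over 809 to 1255 TPM in 1-week Esr1 glands of 12 months, without overlap.

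S100a8 (chr3:90668978-90670035, plus strand) and S100a9 (chr3:90692632-90695721, minus strand) stayed at or below 8.29 and 9.84 TPM. In uninduced Esr1 glands S100a9 read 1.24, 2.2 and 3.24 TPM at 12 months, 2.16, 2.72 and 4.81 TPM at 18 months and 1.6, 4.98 and 1.59 TPM at 24 months. In uninduced CYP19A1 glands it read 0, 0.57 and 0.34 TPM, 1.33, 0.85 and 1.68 TPM and 3.4, 0.89 and 0.39 TPM. The Esr1 values lay above the CYP19A1 values without overlap at 12 and 18 months and overlapped them at 24 months. The uninduced model difference was 0.91 (SE 0.33, 95% interval 0.25 to 1.58, limma adjusted p = 0.129; means 2.73 and 1.05 TPM). With Pigr and Ltf it made 3 of 10 members at an unadjusted p under 0.05, against 17.7% of all genes. After 6 months of induction S100a8 read 5.88, 6.47 and 3.61 TPM in Esr1 and 0.8, 2.48 and 1.74 TPM in CYP19A1 glands, without overlap. After 12 months it read 6.98, 3.06 and 2.07 TPM against 2.29, 3.05 and 2.64 TPM, and at 30 months 3.55, 1.55 and 1.89 TPM against 1.2, 3.48 and 0.52 TPM, so both of these overlapped. S100a8 differed by 0.67 over the long groups (SE 0.31, adjusted p = 0.253; means 3.9 and 2.02 TPM). Of 14 neutrophil genes, Ngp, Camp, Mpo, Ly6g, Mmp8 and Stfa2l1 had medians under 0.1 TPM in both models and were at 0 in 4 to 40 of the 48 libraries. Prtn3 (a granule protease, median 2.56 TPM, up to 12.2), Hdc (1.77 TPM), Il1r2 (1.29 TPM) and Csf3r (1.1 TPM) stood near the level of S100a8 and S100a9, and the other 4 had medians of 0.105 to 0.415 TPM. The 14 genes summed to 3.55 to 19.8 TPM over the 48 libraries, with medians of 8.18 TPM in the Esr1 and 9.76 TPM in the CYP19A1 model. With age, S100a8 in uninduced CYP19A1 glands read 0.62, 0.79 and 0.63 TPM at 12 months, 1.28, 1.05 and 1.69 TPM at 18 months and 2.68, 0.86 and 0.83 TPM at 24 months, above the 12-month values in every library at both later ages. Replicates 1 and 3 at 12 months held 67.2% and 22.2% ribosomal RNA, and the part of that share in this order was not tested.

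Cxcl15 (chr5:90794534-90803067, plus strand) lay between 0.17 and 9.85 TPM and, with Ltf, stood lower in the Esr1 model after long induction. It read 4.75, 0.41 and 0.17 TPM after 6 months, 0.37, 0.25 and 0.2 TPM after 12 months and 0.53, 6.54 and 0.21 TPM at 30 months in Esr1 glands. In CYP19A1 glands it read 2.35, 7.89 and 1.73 TPM, 1.82, 2.87 and 4.7 TPM and 5.77, 1.92 and 1.84 TPM. The models were apart without overlap after 12 months and overlapped in the other long groups, each through 1 Esr1 library. The difference over the long groups was -1.11 (SE 0.38, 95% interval -1.88 to -0.35, limma adjusted p = 0.0923; means 1.49 and 3.43 TPM). It passed the threshold with a pseudocount of 0.1 (-2.11, adjusted p = 0.0231), with protein-coding genes rescaled (-1.66, adjusted p = 0.0294), and with the luminal covariate (-1.27, adjusted p = 0.0225). It also passed without replicate 1 of the Esr1 6-month group (-1.35, adjusted p = 0.0252) or replicate 2 of the Esr1 30-month group (-1.39, adjusted p = 0.0189). Over the long groups 0 of 10 members were called, against 4.15% of all genes, and 8 of 10 (all but S100a9 and Saa3) had an unadjusted p under 0.05, against 17.6%. Among these 8, Pigr, Lcn2, Trf, Saa1 and Saa2 correlated with each other at 0.63 to 0.97 within groups and do not count as separate observations. The same limit holds for the other counts of members. Of the 10 members 8 lay higher in the Esr1 model, with a median of 0.89 beside -0.12 for all genes, and 6 with a median of 0.58 when the luminal score was a covariate.

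After 1 week in 12-month CYP19A1 glands Cxcl15 read 0.46, 1 and 0.49 TPM against 2.02, 9.85 and 3.67 TPM uninduced, without overlap. The difference was -1.71 (SE 0.66, 95% interval -3.04 to -0.38, limma adjusted p = 0.548). Here 0 of 10 members were called, against 0% of all genes, 1 of 10 had an unadjusted p under 0.05, against 6.78%, and 1 of 10 was lower without overlap, against 1.36%. Without uninduced replicate 1, the library with 67.2% ribosomal RNA, it was -2.12 with an adjusted p of 0.0146, in a fit that called 12421 genes in all. All 3 induced libraries of this group were over 10% ribosomal RNA, at 36.7% to 49.8%, and uninduced replicates 1 and 3 held 67.2% and 22.2%. Leaving out such libraries would leave no induced one, so the part of that share in the difference was not tested. In 24-month Esr1 glands Cxcl15 was lower after 12 months of induction than uninduced (3.23, 2.85 and 0.43 TPM) without overlap, 1 of 10 members against 0.762% of all genes. There 0 of 10 were called against 0.00495% (0 of 10 and 1.38% at an unadjusted p under 0.05).

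**Figure D4:**
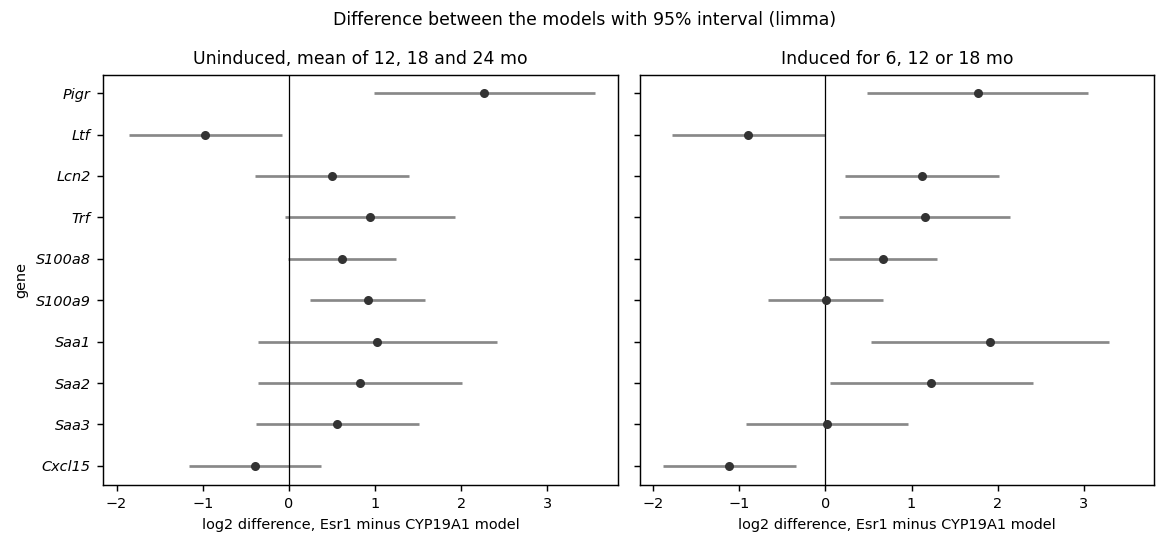
Difference between the models for each member on the log2(TPM + 1) scale, Esr1 minus CYP19A1, in uninduced groups (left) and groups induced for 6, 12 or 18 months (right); points are limma estimates and lines their 95% intervals, unadjusted. Pigr lies at 2.27 and 1.77, Ltf at -0.97 and -0.89, and Cxcl15 at -0.39 and -1.11.

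The remaining comparisons of induction and age called 0 of 10 members each. In Esr1 glands the share of all genes called by limma, with the share at an unadjusted p under 0.05 in second place, was 0% and 1.25% after 1 week at 18 months and 0% and 1.16% after 6 months. With age it was 0% and 2.76% for uninduced glands at 18 against 12 months, 0.574% and 7.68% at 24 against 12 months, and 0.139% and 15.9% for 30-month against 12-month-induced glands. In CYP19A1 glands it was 0% and 1.46% after 1 week at 18 months and 0% and 1.29% after 6 months. With age it was 0.0099% and 5.61% for uninduced glands at 18 against 12 months, 4.24% and 14.7% at 24 against 12 months, and 0% and 1.64% for 30-month against 12-month-induced glands. For the difference of the long responses at 24 months it was 0% and 1.17%, with a member median of -0.03, which was 0.0011 after scaling by the median of ratios and 0.04 with protein-coding genes rescaled. At an unadjusted p under 0.05 the members gave 1 of 10 in 1 of these comparisons and 0 of 10 in the others. The 1 was Trf in uninduced Esr1 glands at 24 against 12 months (-1.85, SE 0.85, limma adjusted p = 0.559), which rests on 2 of the 3 older libraries (196 and 315 TPM beside 3279 TPM, with 12-month libraries at 1644 to 2512 TPM). All 10 members lay higher after 1 week at 18 months in Esr1 glands (median 0.65 beside 0.14 for all genes), 8 of 10 after scaling by the median of ratios and 8 of 10 with the luminal covariate (median 0.30). The 6-month and 12-month comparisons of a model share their uninduced libraries, as do the age comparisons of a model. In uninduced CYP19A1 glands at 24 against 12 months all 8 skeletal muscle genes were higher (Acta1 by 4.17, limma adjusted p = 0.0103, which was 0.0945 after scaling by the median of ratios and at most 0.0562 without 1 library).

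Groups without overlap in these comparisons were few. S100a8 was higher in uninduced Esr1 glands at 18 months (2, 2.53 and 2.4 TPM) than at 12 months (0.62, 1.9 and 1.98 TPM), 1 of 10 members against 1.53% of all genes. In uninduced CYP19A1 glands S100a8 and S100a9 were higher at 18 than at 12 months, 2 of 10 against 1.52%, and S100a8 at 24 than at 12 months, 1 of 10 against 9.31%. These 2 genes correlated at 0.70 within groups and do not count as separate observations. Replicates 1 and 3 of this 12-month group held 67.2% and 22.2% ribosomal RNA, and S100a9 was at 0 TPM in replicate 1. Replicate 1 at 18 months held 40.3% and replicate 3 at 24 months 15.6%. The part of that share in these separations was not tested. In CYP19A1 glands Pigr, Lcn2, Trf and Saa2 were lower at 30 months after 18 months of induction than at 24 months after 12 months, 4 of 10 against 21.6%, and Trf there read 342, 213 and 399 TPM against 531, 764 and 816 TPM. The last comparison joins age with length of induction, and the 2 cannot be told apart.

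Across the libraries the members split into companies. Taken as deviations from group means over the 48 libraries, on the log2(TPM + 1) scale, the Pearson correlation was 0.97 between Saa1 and Saa2, 0.91 between Lcn2 and Trf, 0.88 between Pigr and Trf and 0.85 between Lcn2 and Saa1. It was 0.79 between Ltf and Lcn2 and 0.70 between S100a8 and S100a9. Saa1 and Saa2 share transcript windows, and the part of this in their 0.97 was not tested. Pigr and Ltf, the pair that lay in opposite directions between the models, correlated at 0.42 within groups and at 0.07 over the raw libraries. Saa3 correlated at 0.58 and 0.62 with S100a9 and S100a8 and at 0.33 to 0.60 with the milk-linked members, and its company differed by model. Within the Esr1 libraries it was 0.87 with Saa2, 0.82 with Saa1, 0.75 with Lcn2, 0.67 with S100a8 and 0.42 with S100a9. Within the CYP19A1 libraries it was 0.30, 0.26, 0.28, 0.59 and 0.71 in the same order, and the difference between the models was not tested. Cxcl15 lay between -0.26 and 0.08 with every other member over all libraries, and between -0.48 (with Pigr) and 0.07 (with S100a9) without the 9 libraries over 10% ribosomal RNA. With Trf it was -0.02 over all libraries, -0.31 without those 9, -0.44 within the Esr1 and 0.67 within the CYP19A1 libraries, a difference that was not tested. These are descriptions over libraries that share the scale of TPM, the share of epithelium in the gland and ribosomal RNA content. The members varied more within groups than most genes: their residual SD was 0.70 (S100a8) to 1.56 (Saa1) on the log2 scale, between the 92.7th and 99.6th percentile of the genes tested.

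**Figure D5:**
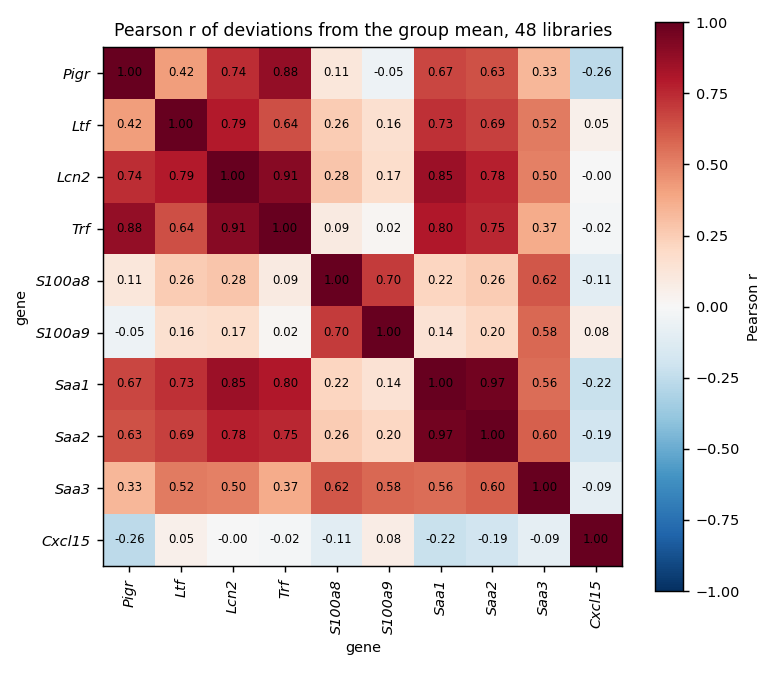
Pearson correlation between members, from deviations of log2(TPM + 1) from the group mean in 48 libraries; red is positive, blue negative, and the number in each cell is the correlation. Pigr, Ltf, Lcn2, Trf, Saa1 and Saa2 form 1 block (0.42 to 0.97), S100a8 and S100a9 reach 0.70, Saa3 lies between both sets (0.58 and 0.62 with the S100 genes, up to 0.60 with Saa2), and Cxcl15 lies outside them.

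The score of the 10 milk protein genes gave within-group correlations of 0.93 with Pigr, 0.93 with Trf, 0.81 with Lcn2, 0.80 with Saa1, 0.52 with Ltf and -0.19 with Cxcl15. The luminal epithelium score gave 0.73, 0.82, 0.79, 0.50, 0.46 and 0.28 in the same order. Without the libraries over 10% ribosomal RNA the values of Cxcl15 were -0.43 and -0.01, and those of the other 5 kept their sign. Macrophage and neutrophil scores gave 0.63 and 0.51 with S100a8, 0.43 and 0.60 with S100a9, 0.49 and 0.25 with Saa3, and 0.22 and -0.01 with Pigr. Milk protein genes differed between the models in the direction of Pigr: 1 of 10 was higher in uninduced Esr1 glands (Glycam1, a mucin of milk and lymphoid vessels, by 4.84, SE 1.20, limma adjusted p = 0.0149). The call of Glycam1 was lost without replicate 2 of the Esr1 18-month or replicate 3 of the Esr1 24-month group (highest adjusted p = 0.0515). Over the long groups 6 of 10 were higher, led by Glycam1 (5.27, adjusted p = 0.00492), Wap (whey acidic protein, 4.98, adjusted p = 0.0106), Csn1s2a (4.39, adjusted p = 0.0419) and Csn2 (beta-casein, 4.36, adjusted p = 0.0329). There Glycam1 and Wap passed in all 18 fits without 1 library, and Csn1s2a and Csn2 were each lost in 12 of 18. Milk protein genes summed to 67.6 TPM at the lowest and 49247 TPM at the highest in the 9 uninduced Esr1 libraries, and to 147 and 7323 TPM in the 9 uninduced CYP19A1 libraries. Their part in the difference of Pigr was not tested.

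The genes whose pattern was most like that of each member, by the same within-group correlation among 12599 named protein-coding genes (Gm and Rik symbols left out) with a mean of at least 1 TPM, differed by company. For Pigr they were Folr1 (a folate receptor, 0.95), Slc28a3 (a nucleoside transporter, 0.94) and Slc34a2 (a phosphate transporter, 0.94), and for Trf Folr1 (0.95), Muc1 (an apical mucin, 0.95) and Csn3 (kappa-casein, 0.95). For Lcn2 they were Cp (ceruloplasmin, a copper ferroxidase, 0.97), Slc1a4 (an amino acid transporter, 0.93) and Muc1 (0.93). Ltf stood with Antxrl (0.81), Anxa8 (an annexin, 0.81) and Ceacam10 (0.79). Saa1 and Saa2 had each other first and then Spp1 (osteopontin, 0.93 and 0.89), followed by Lao1 (an L-amino acid oxidase of milk, 0.87) for Saa1 and Csn1s2b (a casein, 0.87) for Saa2. Among S100a8, S100a9 and Saa3 other genes came first. S100a8 stood with Mt2 (a metallothionein, 0.72), Ccl6 (a chemokine, 0.71) and S100a9 (0.70), and S100a9 with S100a8 (0.70), C7 (a complement component, 0.62) and Csf3r (the receptor for granulocyte colony-stimulating factor, 0.61). Saa3 stood with Fcgr4 (an Fc receptor of myeloid cells, 0.73) and Bcl2a1b (0.70). Cxcl15 stood with Pgr (the progesterone receptor, 0.90), Cyp3a57 (0.89) and Slc5a5 (the iodide transporter, 0.88); Pgr had medians of 2.34 TPM in the Esr1 and 5.02 TPM in the CYP19A1 model.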

How the data were processed

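Values were taken from a table of TPM (length-scaled transcript levels) that the authors deposited for 48 libraries of rRNA-depleted, stranded total RNA, sequenced single-end, per the labels' protocols. The submitters' processing notes name, with no roles, RSEM 1.3.1, STAR 2.7.9a, FastQC 0.11.9, Trim Galore 0.6.5 and the mm10 build; the annotation release is not given in the sources used here, and 55094 of 55487 versioned gene IDs matched GENCODE M21, from which coordinates were taken. TPM rescale each library to the same sum, so depth is lost and a few abundant RNAs shift all other values. Genes at 1 TPM or more in at least 3 libraries were kept, and log2(TPM + 1), which understates changes of low genes, was fitted with limma 3.58.1 (R 4.3.3) over all 16 groups with 18 contrasts, Benjamini-Hochberg adjustment over the 20209 genes and a threshold of 0.05. Model comparisons were averages over ages or lengths of induction. The script was tested on simulated data. Cell type scores were mean log2(TPM + 1) of a list. Members, lists and comparisons were chosen with earlier results of these data known. Genes of other lists were named where they passed the threshold, at most 4 per list and comparison with the largest difference first, and otherwise the 2 with the highest mean TPM; for each member the 3 genes of most like pattern were named, except 1 that is not reported here. Replicate numbers paired samples by the correlation of their deviations in 1 of 14 two-group comparisons, the 30-month against 12-month-induced CYP19A1 glands. Alternatives were another pseudocount, no filter, 2 other scalings, fitting only the compared groups, a replicate block, leaving out single libraries or those over 10% ribosomal RNA and, added after seeing the data, the luminal score as a covariate.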

Additional observations from a re-analysis of the deposited data

How the results depend on the processing

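For the uninduced comparison of the models, 1 member passed the threshold as reported, 0 with a pseudocount of 0.1, 0 without the filter on low values, 0 with only the compared groups fitted, 0 with the luminal score as covariate and 2 with protein-coding genes rescaled, where Ltf joined Pigr. Without the libraries over 10% ribosomal RNA Pigr no longer passed the threshold and Ltf did. Over all genes this comparison called 596, and 211 with only the compared groups, 2569 without libraries over 10% ribosomal RNA, 3343 with median-of-ratios scaling and 3583 with protein-coding genes rescaled. For the long groups 0 members passed as reported, 1 with a pseudocount of 0.1 (Cxcl15), 1 with median-of-ratios scaling (Lcn2), 2 with protein-coding genes rescaled (Lcn2, Cxcl15) and 2 with the luminal covariate (Ltf, Cxcl15). Over all genes the long comparison called 839, and between 808 and 4079 under these alternatives, the highest with the luminal covariate. Leaving out single libraries gave 0 to 1 members in the uninduced comparison, 0 to 2 in the long groups and 0 to 1 after 1 week in CYP19A1 glands of 12 months, where all genes called ranged from 0 to 12421. It gave 0 to 0 members in each of the other 15 comparisons. With the replicate block the counts of members were 1 in the uninduced comparison of the models, 0 in the long groups and 0 in the others, so the block changed no call; in the 1 comparison with pairing it also gave 0. No log2 difference of a member with an unadjusted p under 0.05 changed sign under an alternative, whereas the member median of the difference of long responses, -0.03, was 0.0011 and 0.04 under the 2 other scalings. The cause of these shifts was not tested. The fit without libraries over 10% ribosomal RNA was not run for the 12-month 1-week CYP19A1 comparison and the difference of 1-week responses, which it leaves without libraries. The median of all genes on the deposited scale lay between -0.36 and 0.30 on the log2 scale over the 18 comparisons, over 0.1 in size in 11 of them, and between -0.01 and 0.03 after median-of-ratios scaling. With 3 libraries a group and no depth, differences near the residual SD could not be resolved.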

Other observations

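The plasma cells that supply the ligand of the Pigr protein were described by 8 genes. Iglc1, a lambda light chain, was higher in Esr1 than CYP19A1 glands by 2.19 on the log2(TPM + 1) scale when uninduced (SE 0.36, limma adjusted p = 0.000102; means 18.9 and 3.56 TPM) and by 1.51 over the long groups (SE 0.36, adjusted p = 0.00818; means 10.97 and 3.11 TPM). It was the only 1 of the 8 past the threshold in either comparison, and the medians of the 8 were -0.07 and -0.05 beside 0.10 and -0.12 for all genes. Igha nevertheless followed Pigr from library to library within groups (r = 0.76 over 48 libraries), and Elf5, a transcription factor of secretory alveolar cells, did so more closely (r = 0.93).

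The 5 other chemokines listed here were low too. Ccl6, named above for its pattern, is not among them and had a mean of 31.2 TPM. The 5 genes Cxcl1, Cxcl2, Cxcl3, Cxcl5 and Ccl20 summed to a median of 2.06 TPM in Esr1 libraries, where Cxcl15 had a median of 1.525 TPM, and of 0.750 TPM in CYP19A1 libraries, where Cxcl15 had 2.495 TPM. Of these, 2 of the 5 were tested and 0 passed the limma threshold in either comparison of the models. Basal epithelium genes gave 0 of 7, macrophage genes 0 of 10, adipocyte genes 0 of 8, skeletal muscle genes 0 of 8 and neutrophil genes 0 of 5 tested in both comparisons of the models. Of the skin keratinocyte genes 0 of 7 passed uninduced and 2 of 7 were lower in the Esr1 model over the long groups. Of the 9 salivary gland genes 3 were tested and 1, Klk1b22, was higher in the Esr1 model in both; uninduced, that call was lost in 12 of 18 fits without 1 library.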
